A study of Rattus with 9 samples.

Results

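Crem and 8 of its partners in cyclic AMP (cAMP) signalling were followed through the cells of the rat bile duct after liver transplantation (LT). The 9 genes were taken by their symbol alone and each matched 1 of the 23999 features of the files. They were the transcription factors Crem (ENSRNOG00000014900), Creb1 (ENSRNOG00000013412) and Atf1 (ENSRNOG00000061088), the coactivators Crtc2 (ENSRNOG00000056337) and Crtc3 (ENSRNOG00000011975), the phosphodiesterases Pde4b (ENSRNOG00000005905) and Pde4d (ENSRNOG00000042536), and the protein kinase A subunits Prkaca (ENSRNOG00000005257) and Prkar1a (ENSRNOG00000049876).

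cAMP is made by adenylyl cyclases below Gs-coupled receptors and frees the catalytic subunit of protein kinase A, encoded by Prkaca, from regulatory subunits such as that encoded by Prkar1a. The freed kinase phosphorylates CREB1, ATF1 and CREM on cAMP response elements, CRTC coactivators join them there, and PDE4 enzymes end the signal by breaking cAMP down. CREM can activate or repress, because an internal promoter of the gene, itself induced by cAMP, gives the short repressor ICER. In the bile duct, secretin raises cAMP in biliary epithelial cells (BEC) and drives bicarbonate secretion, and in leukocytes PDE4 keeps cAMP low.

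Bile ducts of 9 samples had been taken apart with enzymes, freed of red and dead cells, and profiled by 10x Genomics 3′ scRNA-seq, which counts each captured RNA molecule by a unique molecular identifier (UMI). The 3 sham samples (sham1 to sham3) had 1 library each, and the labels say no more of them. The ctrl rats had LT with ischemic injury and gave 1 sample each at days 1, 3 and 7 (ctrl1D, ctrl3D, ctrl7D). The treat rats had the same LT with ligation of the splenic and gastric-duodenal arteries to raise arterial flow, and gave 1 sample at each of the same days (treat1D, treat3D, treat7D). The animals were young Sprague-Dawley rats of both sexes according to the study's methods, and the labels give no genotype or transgene. Libraries of 1 sample were summed, since the labels do not say whether they came from separate rats, so p-values measure only the spread between samples, which may be technical. A 3′ count per gene does not tell ICER from the other transcripts of Crem, so Crem below means all of them.

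After filtering, 139110 cells remained, from 2272 in sham1 to 31628 in ctrl7D. The 20 libraries held between 14398295 and 109245177 UMIs each, and the median cell of a library had 1881 to 6898 UMIs. Over all cells of a sample, Crem was covered by 1350 to 67498 UMIs, Pde4d by 76 to 4138, Creb1 by 141 to 1153 and Crtc3 by 30 to 313. The cells formed 45 clusters, of which 35 were named after marker genes with 17 cell type names, and 7.01% of cells stayed unnamed. A name such as BEC or T stands for BEC-like or T-like clusters throughout. Sham1 stood apart from the other sham samples, with 6.06% of its UMIs in fibroblasts against 49.7% and 51.7%. Libraries of a sample shared at most 0.330% of their barcodes. At day 3 of ctrl, the limit on hemoglobin left 437 of 2916 and 337 of 4303 barcodes in 2 of the 3 libraries.

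In the sham bile duct, the level of Crem was highest in NK and T cells among the cell types compared. Levels are UMIs of a gene per 1000000 UMIs of a cell type in a sample (CPM), and those of different genes are not compared, since they are not corrected for length or capture. Crem averaged 1441 ± 599 CPM in NK cells (SD, n = 3) and 1180 ± 403 CPM in T cells (SD, n = 3), and the ranges of these 2 cell types overlapped. Macrophages followed with 526 ± 267 CPM and vascular smooth muscle cells (VSMC) with 426 ± 170 CPM (SD, n = 3 each), with overlapping ranges. The sham ranges of T cells and macrophages did not overlap.

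Endothelial cells (EC) held 172 ± 67.9 CPM of Crem (SD, n = 3), below every VSMC value. Lymphatic EC had 118 ± 24.7 CPM and fibroblasts 112 ± 43.5 CPM (SD, n = 3 each), and both overlapped with EC. Tuft cells, a chemosensory epithelial type, had 38.6 ± 15.9 CPM, and BEC had 31.3 ± 6.65 CPM (SD, n = 3 each), with overlapping ranges. NK cells thus held 46.0-fold the Crem level of BEC before any correction, over the 9 cell types with 20 or more cells in each sham sample. RNA from outside the cells, estimated from empty barcodes, made up 14.3%, 44.4% and 66.0% of the Crem UMIs of tuft cells and 10.1%, 22.6% and 33.9% of those of BEC in sham1, sham2 and sham3. After its subtraction tuft cells had 24.7, 19.3 and 23.4 CPM and BEC 22.3, 27.6 and 25.3 CPM, so which of the 2 was lowest depended on this step.

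The phosphodiesterases were the other members with a wide range over cell types. Pde4b, which controls cAMP in inflammatory cells, was highest in T cells with 135 ± 24.1 CPM and lowest in BEC with 3.53 ± 0.58 CPM (SD, n = 3 each), 38.2-fold apart. Macrophages (122 ± 52.8 CPM) and lymphatic EC (93.7 ± 11.4 CPM) overlapped with T cells or with each other in Pde4b, whereas fibroblasts, tuft cells and BEC lay below every EC value. Pde4d, a long gene with many isoforms, was highest in T cells with 79.3 ± 15.9 CPM and lowest in macrophages with 1.39 ± 1.23 CPM (SD, n = 3 each), 57.2-fold apart. The macrophage mean rests on only 0, 12 and 12 UMIs in sham1, sham2 and sham3, so this fold is imprecise. Macrophages were thus near the top of the order for Pde4b and at the bottom of that for Pde4d. Tuft cells had 24.4 ± 7.78 CPM of Pde4d (SD, n = 3), above the sham values of BEC (1.37 to 6.07 CPM).

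**Figure D1:**
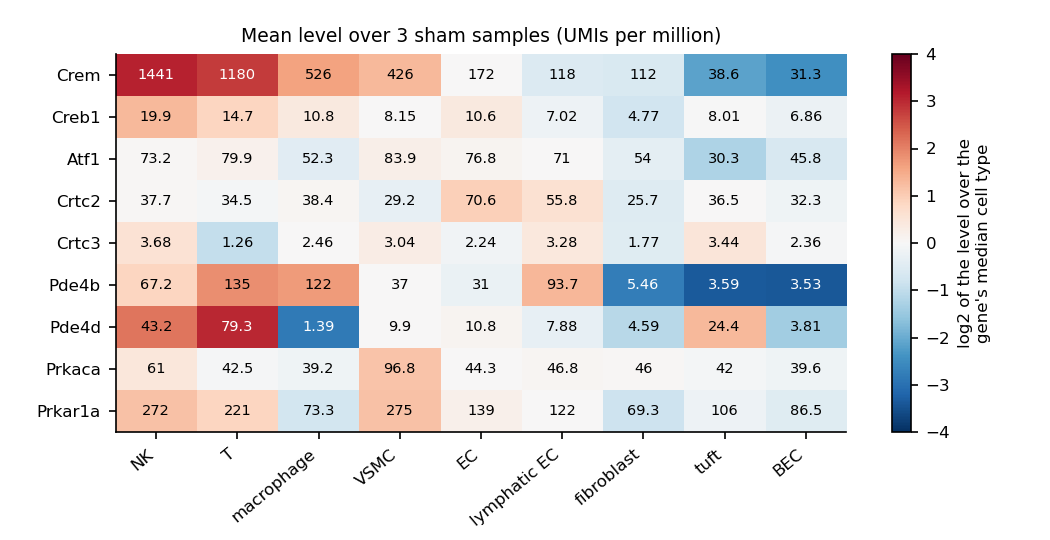
Mean level of each member in the 9 cell types with at least 20 cells in all 3 sham samples. Numbers are CPM and colours the log2 of the level over the median cell type of that gene. Crem ranges from 31.3 in BEC to 1441 in NK cells, while Prkaca stays between 39.2 and 96.8.

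The remaining members varied less between cell types. The highest sham mean was 4.18-fold the lowest for Creb1, 2.77-fold for Atf1, 2.75-fold for Crtc2, 2.93-fold for Crtc3, 2.47-fold for Prkaca and 3.97-fold for Prkar1a. Prkaca was highest in VSMC with 96.8 ± 41.2 CPM (SD, n = 3), apart from all NK values. Prkar1a was also highest in VSMC with 275 ± 18.3 CPM (SD, n = 3), where it overlapped with NK cells (272 ± 35.9 CPM, SD, n = 3). Crtc2, the CRTC member that senses both cAMP and calcium, was highest in EC with 70.6 ± 29.7 CPM (SD, n = 3), but sham1 had 36.4 CPM there against 87.4 and 88.2 CPM in sham2 and sham3. Creb1 and Crtc3 were counted sparsely, and all neighbours in their order of cell types overlapped.

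The 5 genes whose sham means over the 9 cell types were most like those of Crem were Ifitm1, Smarca5, Emd, Etf1 and Oaz1. Their Pearson correlation with Crem over these 9 points ranged from 0.940 to 0.956 among 5371 genes compared. The points share samples, and genes of leukocytes in general can rank high by this measure.

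Single clusters were compared within a sample, among those with at least 20 cells in it. The NK cluster had the highest Crem level in sham2 (1734 CPM) and sham3 (1837 CPM), and a neutrophil cluster in sham1 (1816 CPM). An unnamed cluster with Gata3 and Il2ra, genes of type 2 lymphocytes, had 1098, 1577 and 1589 CPM in the 3 sham samples. A small T cluster of 278 cells with Ctsw and Il17a among its leading genes, mostly from sham2 (73 cells) and sham3 (161 cells), had 1427 and 1611 CPM there. At the low end, a BEC cluster with Lypd8 among its leading genes had 13.9, 12.6 and 21.3 CPM in the sham samples.

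**Figure D2:**
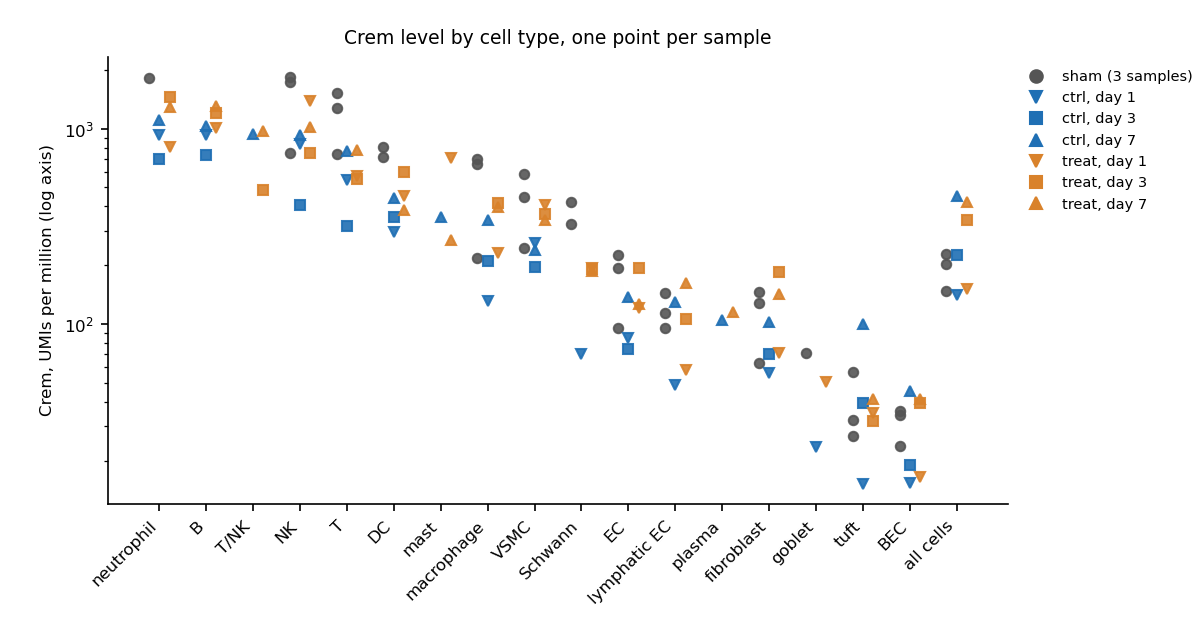
Crem level in each sample and cell type (CPM, log axis). Each point is 1 sample with at least 20 cells of the type, and cell types are ordered by level. T and NK cells of sham2 and sham3 lie above the transplanted samples, and BEC points lie between 15.4 and 45.3 CPM.

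To ask whether LT changed the members within cell types, UMIs were summed per sample and cell type and the ctrl samples were compared with the sham samples. The comparison sets the mean of days 1, 3 and 7 in ctrl against the mean of the 3 sham samples, after scaling by the TMM method, with the treat samples in the same fit. Of 74 pairs of a member and a population, 7 were called at an adjusted p under 0.05 by edgeR's quasi-likelihood test, with 5 up and 2 down. With total UMIs in place of TMM there were also 7, with 2 up and 5 down. Without adjustment 19 pairs had a p under 0.05, and DESeq2 called 10. No share of all genes is given for these other settings or for an unadjusted p, here or below. Those counts are therefore not read as a trait of the members. Fibroblasts held 4 of the 7 calls among 9 members tested, where 17.1% of all genes tested were called. Over all cells, 2 of 9 members were called, against 11.8% of all genes. T cells had 1 call among 8 members tested, Crem, against 1.96% of all genes.

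In 6 cell types no member was called in this comparison. BEC had 9 members tested and 2 at an unadjusted p under 0.05, where 11% of all genes were called. EC had 9 tested and 2 at that level (2.49% of all genes called), macrophages 9 and 3 (13.7%), and NK cells 8 and 2 (5.29%). VSMC had 7 tested and 1 at that level (7.18% of all genes called), and tuft cells 6 and 0 (0.719%). Members that are missing from these counts, such as Crtc3 in T and NK cells and Creb1 in VSMC and tuft cells, had too few UMIs to be tested.

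Crem fell in T cells after LT. It had 739, 1272 and 1529 CPM in T cells of sham1, sham2 and sham3. The ctrl samples had 545, 317 and 765 CPM at days 1, 3 and 7, so that only ctrl7D lay above the lowest sham sample. The treat samples had 571, 552 and 782 CPM. The fold change of ctrl against sham was -1.11 on the log2 scale (standard error 0.27), and its adjusted p was 0.0472.

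This call was near the threshold. It was lost without sham2, sham3, ctrl3D, ctrl7D or treat1D (adjusted p = 0.0502 to 0.223), whereas without sham1 the log2 fold change was -1.38 (adjusted p = 0.00549). It was also lost with libraries as samples, sham and ctrl samples alone, finer clusters (-0.79), no doublet removal, free RNA subtracted or cycling clusters left out (adjusted p = 0.0540 to 0.234). Different clusters held most T cells in the groups: the small T cluster of 278 cells held 59.3% and 83.0% of T cells in sham2 and sham3, and 1 larger cluster most T cells of the other samples. Within that larger cluster, Crem had 717, 1074 and 1347 CPM in the sham samples (77, 45 and 22 cells). There the ctrl samples had 558, 404 and 857 CPM and the treat samples 682, 685 and 917 CPM, so the groups overlapped through sham1.

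NK cells, VSMC and macrophages had estimates of the same sign. In NK cells, all held by 1 cluster, Crem had 752, 1734 and 1837 CPM in the sham samples and 838, 405 and 927 CPM in ctrl at days 1, 3 and 7. Its log2 fold change was -1.02 (standard error 0.31, adjusted p = 0.0722). Sham1 lay among the ctrl samples, and the other sham samples lay above them.

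In VSMC, the contractile cells of the vessel wall, Crem had 246, 447 and 585 CPM in sham and 261, 197 and 241 CPM in ctrl (log2 fold change -0.81, standard error 0.27, adjusted p = 0.0967). In macrophages it had 218, 661 and 697 CPM in sham and 132, 210 and 341 CPM in ctrl (log2 fold change -1.04, standard error 0.43, adjusted p = 0.131). As in NK cells, sham1 was the lowest sham sample in both. With total UMIs in place of TMM, Crem passed the test in NK cells (-1.09, adjusted p = 0.0498) and in macrophages (-1.31, adjusted p = 0.0400). Different clusters held most macrophages of the groups, and most of those of sham1 (64.9%) lay in a cluster with 13.7 CPM of Crem in that sample, apart from the cluster that held most in sham2 and sham3.

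The count of calls moved with the samples in the fit. Without sham1, 16 of 74 pairs were called in place of 7, with 7 higher and 9 lower, while the share of all gene and population pairs called went from 8.82% to 15.8%. Crem was then called in NK cells (log2 fold change -1.32, adjusted p = 0.00363), macrophages (-1.41, adjusted p = 0.00748) and VSMC (-1.08, adjusted p = 0.0147) as well as in T cells. Without sham2, 2 member pairs were called (2.04% of all pairs), without sham3 1 (1.2%), without ctrl3D 1 (3.05%), without ctrl7D 2 (1.5%), and without ctrl1D 3 (2.17%). Without treat1D 4 were called (6.92%), without treat3D 5 (7.53%) and without treat7D 5 (4.5%). Each sample was left out in turn, and why sham1 differs was not tested.

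EC, fibroblasts, BEC and tuft cells gave no call for Crem. EC had 95.3, 194 and 225 CPM in sham and 85.0, 74.8 and 137.3 CPM in ctrl (log2 fold change -0.72, standard error 0.40, adjusted p = 0.311). The estimates were -0.40 in fibroblasts (standard error 0.35, adjusted p = 0.455), -0.14 in BEC (standard error 0.30, adjusted p = 0.791) and 0.11 in tuft cells (standard error 0.45, adjusted p = 0.957). The sign in BEC and tuft cells changed under other settings.

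**Figure D3:**
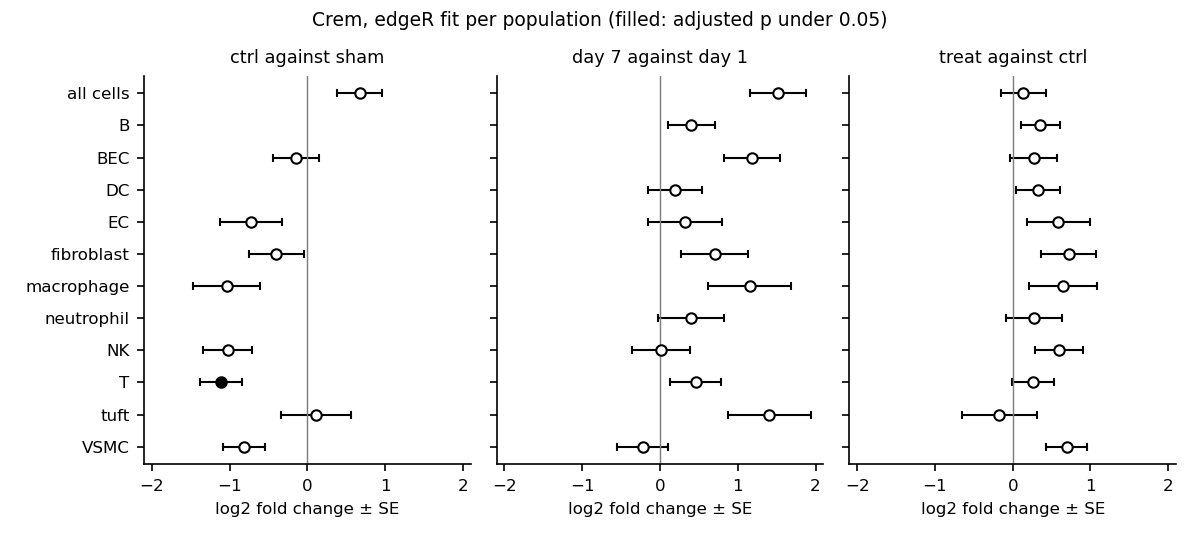
Log2 fold change of Crem with its standard error in each population for the 3 comparisons, from edgeR. The filled point, T cells in ctrl against sham at -1.11, is the one past an adjusted p of 0.05. B cells, DC and neutrophils had too few sham cells for the first comparison.

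Over all cells, the estimate for Crem had the opposite sign. Crem had 148, 228 and 203 CPM in the sham samples. The ctrl samples had 141, 226 and 453 CPM at days 1, 3 and 7, and the treat samples 151, 341 and 420 CPM. Day 1 was within the sham range or just below it in both arms, and day 7 was above it in both. Ctrl against sham gave a log2 difference of 0.67 (standard error 0.29, adjusted p = 0.156), which did not pass the test. With total UMIs in place of TMM it was 0.34 (standard error 0.22, adjusted p = 0.279).

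The comparison of day 7 with day 1, over both arms with 2 samples against 2, addressed this course in time. It shares its samples with the comparison above. Of 99 pairs of a member and a population, 4 were called by edgeR's quasi-likelihood test, with 2 up and 2 down. With total UMIs in place of TMM there were 5, all up. Without adjustment 14 pairs had a p under 0.05, and DESeq2 called 8, again with no share of all genes beside these counts. Over all cells 1 of 9 members was called against 2.77% of all genes, in BEC 1 of 9 against 14.7%, in DC 1 of 9 against 3.55%, and in fibroblasts 1 of 9 against 28.2%.

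No member was called between day 7 and day 1 in the other 8 cell types. The members tested and those at an unadjusted p under 0.05 were 9 and 1 in EC (3.29% of all genes called), 9 and 2 in macrophages (1.33%), 8 and 1 in neutrophils (0.926%) and 6 and 1 in tuft cells (0.491%). They were 8 and 0 in B cells (0.387%), 8 and 0 in NK cells (1.32%), 8 and 0 in T cells (1.11%) and 7 and 0 in VSMC (6.68%). Of all gene and population pairs, 6.25% were called. Without ctrl7D, treat1D or treat7D no member pair was called (0.57%, 2.58% and 1.7% of all pairs), without ctrl1D 1 (2.11%), without sham2 or sham3 2 (3.66% and 4.12%), and without sham1 9 (11%). Without ctrl3D or treat3D 4 were called (5.88% and 5.84%).

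Crem over all cells differed by 1.52 on the log2 scale between day 7 and day 1 (standard error 0.36, adjusted p = 0.0766). In CPM, day 7 was 3.22 times day 1 in ctrl and 2.77 times in treat. The main fit thus did not call it. Total UMIs in place of TMM (log2 fold change 1.59, adjusted p = 0.0475) and DESeq2 (1.51, adjusted p = 0.00293) called it, as did the fit without sham1 (1.55, adjusted p = 0.0260). Libraries as separate samples also called it (1.56, adjusted p = 0.000327). Libraries of a sample may come from the same rat, so they are not known to be replicates.

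Lymphocytes held most of the Crem UMIs at day 7. T, NK, T/NK and B cells together contributed 23.1%, 7.57% and 11.5% of Crem UMIs in sham1, sham2 and sham3. In ctrl their share of Crem UMIs was 7.74% at day 1, 16.5% at day 3 and 58.3% at day 7. In treat it was 14.3%, 35.7% and 59.8%. The same cells made up 4.07% of all cells at day 1 and 40.1% at day 7 in ctrl, and 7.36% and 34.8% in treat.

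Put as a contribution to the level over all cells, these lymphocytes gave 10.9 CPM of Crem at day 1 and 264 CPM at day 7 in ctrl, and 21.6 and 251 CPM in treat. Neutrophils, which arrive early after injury, held 54.2% of Crem UMIs at day 1 of ctrl and 6.90% at day 7, and 16.8% and 3.17% in treat. Macrophages held 10.6% and 22.4% of Crem UMIs on these days in ctrl, and 21.8% and 23.8% in treat. Fibroblasts held 2.59%, 31.8% and 32.6% in sham1, sham2 and sham3, the largest share of a cell type in sham3. Their share was 3.37% at day 1 and 1.62% at day 7 of ctrl, and 20.7% at day 1 of treat. BEC held at most 5.70% of Crem UMIs in any sample.

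**Figure D4:**
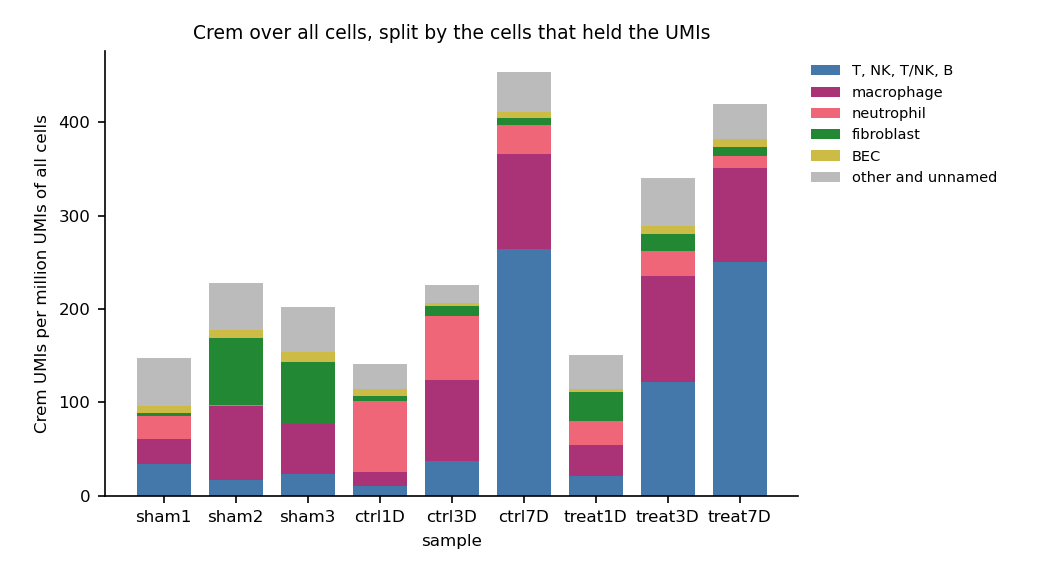
Crem over all cells of each sample (CPM), split by the cell types that held the UMIs. Bars start at 0 and their full height is the level over all cells. The lymphocyte part is 10.9 CPM in ctrl1D and 264 CPM in ctrl7D.

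Composition and level were also recombined, as a description with no test that was added after the data had been seen. It was made over the 13 cell types in ctrl and 15 in treat that had at least 20 cells on both days, the unnamed cells among them as 1 type. The T/NK cells, with 5 and 9 cells at day 1, were not among them. The types left out held 5.74% of all UMIs in ctrl and 7.89% in treat at day 7. Over the types kept, Crem had 141 CPM at day 1 and 440 CPM at day 7 of ctrl, and 151 and 407 CPM in treat. With their levels of day 1 and their shares of UMIs of day 7, it came to 296 CPM in ctrl and 318 CPM in treat. With the levels of day 7 and the shares of day 1 it came to 236 and 228 CPM. Both lay between the observed values of day 1 and day 7 in each arm.

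BEC, the cells that line the duct, were the population at the centre of the study's questions about Crem. BEC had 23.7, 34.3 and 36.0 CPM of Crem in the sham samples (69, 469 and 703 UMIs). The ctrl samples had 15.4, 19.1 and 45.3 CPM at days 1, 3 and 7 and the treat samples 16.5, 39.5 and 41.4 CPM. Both day 1 samples lay below every sham sample and both day 7 samples above. Day 7 against day 1 gave an estimate of 1.18 (standard error 0.36, adjusted p = 0.0655), and without sham1 it was 1.19 (adjusted p = 0.0271).

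Crem RNA outside cells was also higher at day 7. Barcodes with at most 100 UMIs, which hold free RNA, had 151, 173 and 414 CPM of Crem in ctrl at days 1, 3 and 7, and 156, 361 and 430 CPM in treat. The estimated free RNA made up 10.1% to 45.1% of the Crem UMIs of BEC, the lowest in sham1 and the highest in treat7D, against 0.370% to 1.76% in T cells. After its subtraction, BEC had 22.3, 27.6 and 25.3 CPM in sham, 8.99, 14.1 and 26.9 CPM in ctrl, and 12.0, 30.3 and 23.7 CPM in treat. Both day 1 samples stayed below the sham samples, while both day 7 samples lay within their range.

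Different clusters held most BEC of the samples. A cluster with Lypd8 held the largest share of BEC in sham1 and ctrl3D, one with Scgb1c1 and Ttr in sham2 and sham3, a cycling one with Reg3b at day 1, and a further one in treat3D and at day 7. In that further cluster, Crem had 33.4 and 22.1 CPM at day 1 and 47.8 and 43.9 CPM at day 7 in ctrl and treat. The sham samples had 41.1, 46.5 and 86.0 CPM in the same cluster (54, 85 and 44 cells).

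The genes that the study links to Crem in BEC were given beside it. Vim, an intermediate filament of mesenchymal cells, had 61.9, 124 and 134 CPM in BEC of the sham samples and 38.2, 92.7 and 79.6 CPM in ctrl (log2 fold change -0.47, standard error 0.35, adjusted p = 0.416). Free RNA was estimated to make up 37.2% to 68.5% of the Vim UMIs of BEC in these 6 samples, so the values are no measure of Vim in BEC alone. Cdh1, the epithelial cadherin, had an estimate of 0.33 (standard error 0.19, adjusted p = 0.279). Cdh2, the cadherin of mesenchymal and neural cells, had 4.47, 8.05 and 7.17 CPM in sham and 0.90, 1.66 and 2.48 CPM in ctrl (log2 fold change -1.85, standard error 0.39, adjusted p = 0.0288). These came from 11 to 140 UMIs, of which free RNA was estimated to make up 0% to 11.1%. Different clusters held most BEC of the groups, and no value of Cdh2 within a single cluster is given. None of the 3 genes was called in BEC between day 7 and day 1, where Vim had an estimate of 0.23 (standard error 0.43, adjusted p = 0.744). The study reports more Cdh2 in stained bile ducts after LT, which measures protein in tissue and not RNA in BEC. It also reports more Crem and Vim at day 7 than in sham, as mRNA and as protein, again measured in bile duct tissue. In stained ducts it reports more Vim in Ck7-positive regions.

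In the other cell types Crem was not called between the days. The macrophage values of 132 and 230 CPM at day 1 and 341 and 398 CPM at day 7 gave an estimate of 1.15 (standard error 0.53, adjusted p = 0.320). Tuft cells had 15.3 and 99.98 CPM on these days in ctrl but 35.2 and 41.4 CPM in treat, from 22 to 48 UMIs (log2 fold change 1.40, standard error 0.53, adjusted p = 0.665). After subtraction of free RNA, tuft cells had 10.2 and 47.3 CPM in ctrl and 26.2 and 15.6 CPM in treat, so the arms differed in direction. Neutrophils had 929, 702 and 1110 CPM in ctrl and 801, 1457 and 1295 CPM in treat. B cells had 930.1, 733 and 1031 CPM in ctrl and 1008, 1205 and 1310 CPM in treat. The estimates for these and the remaining cell types lay between -0.22 in VSMC and 0.70 in fibroblasts.

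Both phosphodiesterase members rose in fibroblasts after LT. Pde4b had 7.22, 3.8 and 5.35 CPM in fibroblasts of the sham samples, from 4, 105 and 183 UMIs. The ctrl samples had 10.2, 19.5 and 15.6 CPM and the treat samples 14.1, 10.9 and 16.7 CPM, so all 6 transplanted samples lay above all sham samples. The ranges of ctrl and sham alone were apart in 29.8% of all genes of fibroblasts. Ctrl against sham gave a log2 difference of 1.84 (standard error 0.27, adjusted p = 0.00531), and the adjusted p stayed under 0.05 in all 21 alternatives. Not all of these could change it, since leaving out the Scgb1c1 and Ttr cluster of BEC removes no fibroblasts. None of them fitted fibroblasts within a single cluster.

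Pde4d in fibroblasts had 3.61, 5.58 and 4.59 CPM in sham, 9.31, 11.6 and 7.43 CPM in ctrl and 8.63, 5.57 and 8.45 CPM in treat. Every ctrl sample lay above every sham sample, where the ranges of these groups were apart in 29.8% of all genes of fibroblasts. The treat3D value lay within the sham range. The log2 fold change of Pde4d was 1.12 for ctrl against sham (standard error 0.27, adjusted p = 0.0264). The call was lost without sham2, sham3, ctrl1D or ctrl3D (adjusted p = 0.0613 to 0.165), with total UMIs in place of TMM, with libraries as samples and with sham and ctrl samples alone (adjusted p = 0.0667 to 0.115).

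Different clusters held most fibroblasts of the groups. A cluster led by Ogn held 59.2% to 86.9% of them in the sham samples, one led by Ptx3 95.2% and 96.8% at day 1, and one with Cthrc1, a gene of matrix-forming fibroblasts, 84.8% to 98.0% at days 3 and 7. Sham2 and sham3 also had 1304 and 1339 cells in the Cthrc1 cluster. There Pde4b had 2.99 and 3.79 CPM in sham2 and sham3, 18.2 and 15.6 CPM at days 3 and 7 of ctrl, and 9.44 and 16.2 CPM at days 3 and 7 of treat. In the same cluster Pde4d had 6.68 and 5.33 CPM, 11 and 7.41 CPM, and 5.95 and 8.25 CPM in these samples, a smaller gap with treat3D inside the sham range.

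**Figure D5:**
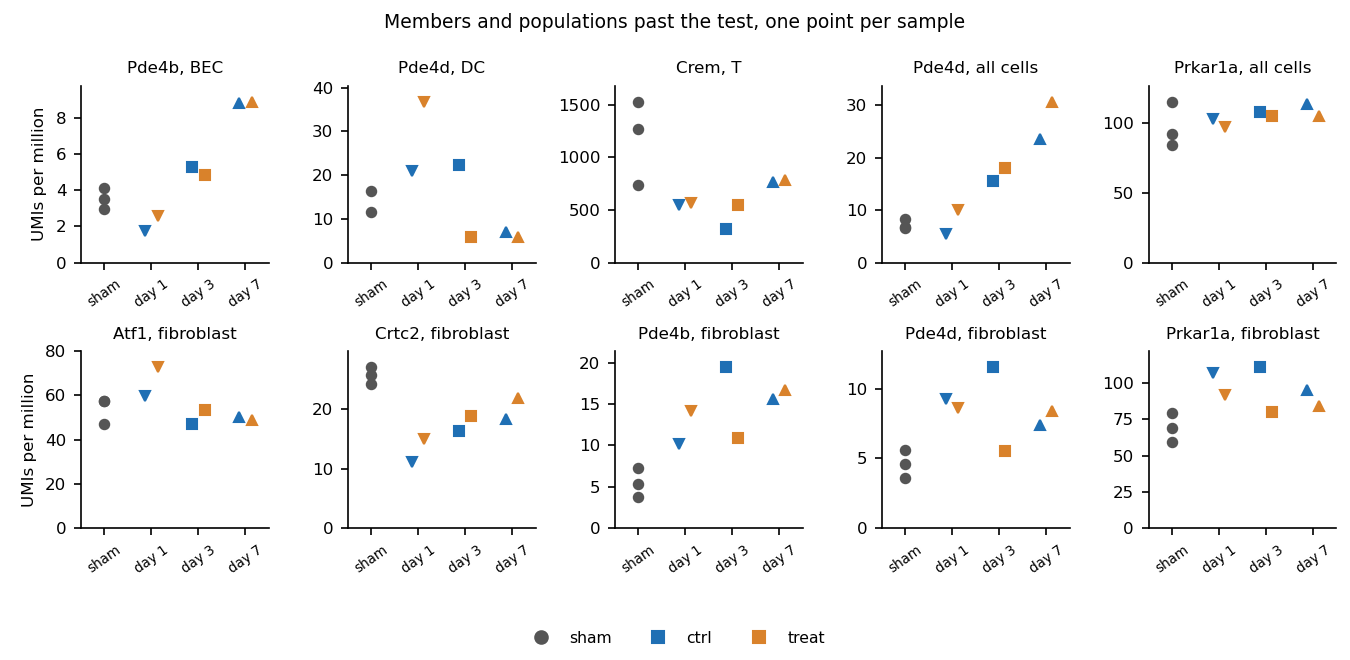
Level (CPM) in every sample for each member and population with a call in either comparison, 1 point per sample, with day on the horizontal axis. In fibroblasts, Pde4b lies between 3.8 and 7.22 in sham and between 10.2 and 19.5 in the transplanted samples.

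Over all cells, Pde4d rose with LT and with time. It had 8.31, 6.77 and 6.54 CPM in the sham samples, 5.51, 15.5 and 23.6 CPM in ctrl at days 1, 3 and 7, and 10.1, 18.0 and 30.7 CPM in treat. Only ctrl1D lay below the sham range. It differed on the log2 scale by 1.17 for ctrl against sham (standard error 0.17, adjusted p = 0.0181) and 1.77 for day 7 against day 1 (standard error 0.21, adjusted p = 0.0227).

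The first call was lost without sham2, sham3, ctrl3D or ctrl7D (adjusted p = 0.0833 to 0.111) and with sham and ctrl samples alone (adjusted p = 0.129). The second was lost without both day 3 samples and without any sample other than sham1 (adjusted p = 0.0504 to 0.310). T, NK, T/NK and B cells held 23.7% of Pde4d UMIs at day 1 of ctrl and 79.7% at day 7, and 30.6% and 88.9% in treat. Within T cells, Pde4d had 61.6, 84.0 and 92.47 CPM in sham and 106, 91.4 and 88.0 CPM in ctrl (log2 fold change 0.33, standard error 0.24, adjusted p = 0.494).

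Pde4b over all cells had 49.6, 21.4 and 16.5 CPM in sham, 23.8, 87.9 and 79.2 CPM in ctrl and 28.8, 50.4 and 79.8 CPM in treat. The log2 fold change of ctrl against sham was 1.34 (standard error 0.37, adjusted p = 0.0624) and that of day 7 against day 1 was 1.51 (standard error 0.46, adjusted p = 0.122), with sham1 inside the range of the transplanted samples. Its UMIs lay in macrophages (42.3% to 51.3% in the sham samples) and, at day 1 of ctrl, in neutrophils (38.8%).

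In BEC, Pde4b rose from day 1 to day 7. The sham samples had 4.12, 3.51 and 2.97 CPM (12, 48 and 58 UMIs), the ctrl samples 1.76, 5.29 and 8.81 CPM and the treat samples 2.58, 4.87 and 8.89 CPM. Day 1 was below every sham sample and day 7 above every sham sample in both arms. The log2 fold change of day 7 against day 1 was 1.78 (standard error 0.25, adjusted p = 0.0137). That call was lost without any 1 of the 4 samples of days 1 and 7 (adjusted p = 0.0785 to 0.179).

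Free RNA of Pde4b was 6.88 CPM at day 1 and 33.8 CPM at day 7 in ctrl, and 7.87 and 28.7 CPM in treat. After its subtraction BEC had 1.52 and 2.39 CPM of Pde4b at day 1 and 7.49 and 8.0 CPM at day 7 in ctrl and treat, which kept the order. In the BEC cluster that held most cells at day 7, Pde4b had 5.28 and 2.15 CPM at day 1 and 9.87 and 9.34 CPM at day 7.

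Pde4d fell in DC, the antigen-presenting cells, between day 1 and day 7. It had 20.8, 22.3 and 6.96 CPM in ctrl and 36.7, 5.84 and 5.96 CPM in treat, from 8 to 178 UMIs. Day 3 was as high as day 1 in ctrl and as low as day 7 in treat. The log2 fold change was -2.15 (standard error 0.45, adjusted p = 0.0350), in a fit of the 6 transplanted samples. It was lost without ctrl7D, treat1D or treat7D (adjusted p = 0.0758 to 0.492) and with total UMIs (adjusted p = 0.0515), and clusters drawn at a finer resolution gave -0.38 (adjusted p = 0.949).

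Other phosphodiesterase estimates stayed short of the threshold. In macrophages Pde4d had no more than 2.36 CPM in any sham sample and 2.95, 10.5 and 4.48 CPM in ctrl (log2 fold change 1.92, standard error 0.62, adjusted p = 0.0697). Pde4b between day 7 and day 1 had estimates of 1.14 in macrophages (standard error 0.32, adjusted p = 0.123) and 1.07 in neutrophils (standard error 0.29, adjusted p = 0.146). In neutrophils it had 112 and 145 CPM at day 1, 308 and 337 CPM at day 3, and 252 and 309 CPM at day 7. Both neutrophil samples of day 1 were the lowest.

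Among the kinase subunits, Prkar1a rose in fibroblasts. It had 59.5, 79.3 and 69.2 CPM in fibroblasts of the sham samples, 107, 111 and 95.2 CPM in ctrl and 91.9, 80.4 and 84.1 CPM in treat. All transplanted samples lay above all sham samples, but treat3D only just above sham2. The ranges of ctrl and sham alone were apart in 29.8% of all genes of fibroblasts. Ctrl against sham gave a log2 difference of 0.79 (standard error 0.17, adjusted p = 0.0189), and it was lost without sham3, ctrl1D, ctrl3D or ctrl7D (adjusted p = 0.0793 to 0.113), with total UMIs in place of TMM (0.56, adjusted p = 0.0508) and with sham and ctrl samples alone (adjusted p = 0.153). In the Cthrc1 cluster Prkar1a had 88.5 and 72.7 CPM in sham2 and sham3 and 108 and 95.7 CPM at days 3 and 7 of ctrl. The treat values of this cluster are not given here, but it held 84.8% and 96.3% of fibroblasts in treat3D and treat7D. The values of all fibroblasts in these samples, 80.4 and 84.1 CPM, lie between those of sham2 and sham3 in the cluster.

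Over all cells, Prkar1a was called as higher in ctrl, but its CPM overlapped: 115, 91.9 and 83.8 in sham and 103, 108 and 113 in ctrl. After TMM the log2 fold change was 0.52 (standard error 0.13, adjusted p = 0.0491). With total UMIs in place of TMM it was 0.16 (adjusted p = 0.497). That scaling also moved the median log2 fold change of all genes from -0.06 to -0.41. The call was lost without any sample other than sham1 (adjusted p = 0.0640 to 0.228), and under 5 further settings (adjusted p = 0.0509 to 0.0973).

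In T and NK cells the estimates of Prkar1a were negative and not called. T cells had 192, 227 and 245 CPM in sham and 131, 145 and 160 CPM in ctrl (log2 fold change -0.53, standard error 0.21, adjusted p = 0.195). NK cells had 236, 274 and 307 CPM in sham and 223, 194 and 160 CPM in ctrl (log2 fold change -0.48, standard error 0.23, adjusted p = 0.232). In both cell types the groups did not overlap, which also held for 18.2% of all genes in T cells and 23.1% in NK cells.

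Prkaca gave no call in any population or comparison. Over all cells it had 39.9, 50.0 and 48.7 CPM in sham and 36.5, 39.4 and 34.1 CPM in ctrl. All ctrl samples lay below all sham samples, and the CPM ranges of these groups were apart in 38.5% of all genes. After TMM the estimate was -0.0044 (standard error 0.19, adjusted p = 0.991), and with total UMIs it was -0.34 (standard error 0.15, adjusted p = 0.144). Its largest estimate in ctrl against sham was -0.68 in NK cells (standard error 0.27, adjusted p = 0.161), where the sham samples had 54.4, 65.0 and 63.5 CPM and the ctrl samples 32.7, 48.5 and 32.6 CPM.

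Of the other transcription factors and coactivators, Crtc2 and Atf1 had 1 call each, both in fibroblasts. Crtc2 had 27.1, 24.3 and 25.7 CPM in fibroblasts of the sham samples, 11.2, 16.3 and 18.3 CPM in ctrl and 14.9, 18.8 and 21.9 CPM in treat. All transplanted samples lay below all sham samples, and the ranges of ctrl and sham alone were apart in 29.8% of all genes of fibroblasts. The log2 fold change of ctrl against sham was -0.54 (standard error 0.15, adjusted p = 0.0411). The call held without sham1 (adjusted p = 0.0333) and was lost without any other single sample (adjusted p = 0.0505 to 0.206). It was also lost with no filter on low counts, with libraries as samples and with sham and ctrl samples alone (adjusted p = 0.0633 to 0.276).

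Atf1 had 46.9, 57.4 and 57.6 CPM in fibroblasts of the sham samples, 59.6, 46.9 and 50.1 CPM in ctrl and 72.8, 53.4 and 49.0 CPM in treat. It fell from day 1 to day 7 (log2 fold change -0.62, standard error 0.20, adjusted p = 0.0462). The day 7 samples lay below the day 1 samples and inside the sham range. Leaving out any sample other than sham1 lost this call (adjusted p = 0.0611 to 0.349). So did total UMIs in place of TMM (-0.41, adjusted p = 0.136), no filter on low counts, free RNA subtracted and both day 3 samples left out (adjusted p = 0.0505 to 0.0777).

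Creb1 was not called anywhere, and its sham values were set apart by sham1. Over all cells Creb1 had 15.4 CPM in sham1 against 4.21 and 4.46 CPM in sham2 and sham3, from 141 UMIs in sham1. In BEC it had 13.7, 3.37 and 3.48 CPM, in macrophages 21.0, 5.25 and 6.09 CPM and in EC 21.8, 6.99 and 3.04 CPM in the 3 sham samples. The transplanted samples ranged from 5.09 to 10.1 CPM over all cells. Crtc3, the least covered member, had 3.28, 1.89 and 1.77 CPM over all cells in sham and 1.13, 2.68 and 2.1 CPM in ctrl (log2 fold change 0.11, standard error 0.35, adjusted p = 0.849).

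The treat samples were compared with the ctrl samples of the same day, with 3 pairs, to ask whether raised arterial flow changed the members. No member was called in any population by edgeR's quasi-likelihood test. Of 99 pairs, 4 had an unadjusted p under 0.05, and DESeq2 called 0. The share of all genes called was 0% over all cells and in BEC, DC, EC, fibroblasts, macrophages, NK cells and tuft cells. It was 0.0143% in B cells, 0.0508% in neutrophils, 0.0204% in T cells and 0.091% in VSMC.

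No member pair was called with any single sample left out either. Of all gene and population pairs 0.0123% were called in treat against ctrl, and 0.0287%, 0.00822% and 0.0123% without sham1, sham2 and sham3. They were 0.106%, 0.124% and 0.0357% without ctrl1D, ctrl3D and ctrl7D, and 0.114%, 0.109% and 0.0381% without treat1D, treat3D and treat7D.

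Crem had estimates of treat against ctrl between -0.17 in tuft cells and 0.72 in fibroblasts (standard error 0.36, adjusted p = 0.449). In fibroblasts Crem was higher in treat at each day, with 71.4 against 56.5, 186 against 70.2, and 143 against 103 CPM. In VSMC it was also higher at each day, with 407 against 261, 365 against 197, and 339 against 241 CPM (log2 fold change 0.69, standard error 0.27, adjusted p = 0.562). Over all cells the estimate was 0.14 (standard error 0.29, adjusted p = 0.98). The other 3 pairs at an unadjusted p under 0.05 were Prkar1a in VSMC (-0.50, standard error 0.23, adjusted p = 0.699), Pde4d over all cells (0.43, standard error 0.16, adjusted p = 0.978) and Pde4d in macrophages (-1.60, standard error 0.52, adjusted p = 0.912).

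The median log2 fold change of the members tested in ctrl against sham ranged over the populations from -0.48 in NK cells to 0.41 over all cells, and that of all genes tested from -0.06 to 0.03. Between day 7 and day 1 the members' median ranged from -0.40 in VSMC to 0.42 over all cells, and that of all genes from -0.036 to 0.038. In treat against ctrl it ranged from -0.11 in tuft cells to 0.24 in NK cells, and that of all genes from -0.011 to 0.049.

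The rest of the pathway was followed with 76 further genes in 7 lists: cAMP production, the other phosphodiesterases, the other kinase subunits with inhibitors and anchors, the EPAC exchange factors, the other CREB-side regulators, Gs-coupled and melatonin receptors, and CREB target genes. In ctrl against sham, 3 of 70 tested genes rose and 4 fell over all cells. In fibroblasts 3 rose and 11 fell of 60, in macrophages 1 and 8 of 57, in VSMC 1 and 9 of 46, and in BEC 2 and 2 of 61. In NK cells 0 rose and 6 fell of 24, in T cells 0 and 5 of 44, and in EC 0 and 3 of 51. The median log2 fold change was negative in each, from -0.25 in BEC to -0.68 in NK cells, and the shares of all genes called are those given above for each cell type.

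CREB target genes, most of them immediate-early genes that follow cAMP and also the stress of taking tissue apart, were counted in ctrl against sham. They fell in 5 of 9 tested in NK cells (median log2 fold change -0.89), 3 of 11 in T cells (median -0.87) and 7 of 10 in VSMC (median -1.02), where 5.29%, 1.96% and 7.18% of all genes were called in either direction. In macrophages 1 of 11 fell (median -0.42, 13.7% of all genes called), in EC 2 of 11 (median -1.18, 2.49%) and in fibroblasts 2 of 11, with 1 higher (median -0.48, 17.1%). By the quasi-likelihood test of edgeR none was called in BEC (12 tested), in tuft cells (11) or over all cells (12), where 2, 1 and 3 had an unadjusted p under 0.05. Nr4a3, a nuclear receptor induced by cAMP, fell by 1.65 on the log2 scale in T cells (adjusted p = 0.0135) and by 1.64 in NK cells (adjusted p = 0.00565). Dusp1, a phosphatase of stress kinases, fell by 1.13 in NK cells (adjusted p = 0.0104).

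In VSMC, Nr4a1 fell by 1.29 (adjusted p = 0.00152) and Btg2, an anti-proliferative gene, by 1.41 (adjusted p = 0.00251), whereas Areg, an EGF receptor ligand, rose by 4.53 (adjusted p = 0.0449). In EC, Nr4a1 fell by 1.71 (adjusted p = 0.0425) and Btg2 by 1.21 (adjusted p = 0.0377). Genes of dissociation stress, mostly heat shock genes, were counted beside them: by edgeR, 0 of 9 tested were called in T cells, NK cells and EC (medians -0.40, -0.69 and -0.61), where 2, 3 and 1 had an unadjusted p under 0.05. In macrophages 1 of 9 fell (median -0.57) and 5 had an unadjusted p under 0.05. In VSMC and fibroblasts 1 of 9 fell as well (medians -0.17 and -0.0027). Their part in the result was not tested.

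Among the other regulators, T cells lost Pde7a, a T cell phosphodiesterase (log2 fold change -1.89, adjusted p = 0.00464), and Sik1, a kinase that holds CRTC coactivators back (-0.95, adjusted p = 0.0278). NK cells lost Pkig, an inhibitor of protein kinase A (-1.70, adjusted p = 0.0129). Adcy5, an adenylyl cyclase, fell in VSMC (-1.54, adjusted p = 0.00584). Different clusters held most T cells, fibroblasts, macrophages and BEC of the groups. The part of this in the estimates of the listed genes, here, above and below, was not tested. No values within single clusters and no fits with samples left out are given for these genes.

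In fibroblasts, the receptor gene Adora2a (log2 fold change 3.16, adjusted p = 0.00275), the G protein regulator Rgs2 (2.08, adjusted p = 0.00276) and, outside the 7 lists, Cdh2 (1.19, adjusted p = 0.00921) rose. The anchor gene Akap12 (-2.45, adjusted p = 0.00275), Sik3 (-1.06, adjusted p = 0.00878) and Creb5 (-1.85, adjusted p = 0.0144) fell. Macrophages gained the prostaglandin receptor gene Ptger2 (2.33, adjusted p = 0.0145) and lost the kinase inhibitor gene Pkib (-1.62, adjusted p = 0.0117), Creb5 (-1.81, adjusted p = 0.0133) and, of the dissociation stress genes, Atf3 (-1.27, adjusted p = 0.0129).

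BEC gained Adcy8 (log2 fold change 2.18, adjusted p = 0.00132) and Creb3 (0.60, adjusted p = 0.0390) and lost Adcy2 (-2.50, adjusted p = 0.0166) and Adcy5 (-2.87, adjusted p = 0.0179). Between day 7 and day 1, BEC had 4 of 61 pathway genes higher and 2 lower, where 14.7% of all genes were called in either direction, a larger share. Among them were Sik3 (0.96, adjusted p = 0.0175), the clock gene Per1 (2.19, adjusted p = 0.0229) and Adcy7 (3.82, adjusted p = 0.0256), all higher, and Pde4c (-1.01, adjusted p = 0.0155), which was lower. No free RNA share is given for these genes, though free RNA of Crem and Pde4b was higher at day 7. Fibroblasts had 13 of 60 higher and 3 lower, a share near the 28.2% of all genes called, with Creb5 (3.96, adjusted p = 0.00179), Akap12 (2.0, adjusted p = 0.00230) and Akap13 (1.45, adjusted p = 0.00251) first by adjusted p. For Akap12 and Creb5 these were the genes that had fallen in ctrl against sham, in a comparison that shares its samples. DC had 5 of 42 lower, where 3.55% of all genes were called, with Adora2a (-3.43, adjusted p = 0.00333), Adcy5 (-2.76, adjusted p = 0.00452) and Adcy6 (-3.59, adjusted p = 0.00732) first. No gene of the 7 lists was called in treat against ctrl in any population.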

How the data were processed

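The values are raw UMI counts, which the authors deposited as 1 matrix per library that also holds empty barcodes. Cell Ranger 4 stands in the headers of these matrices, and the submitters' processing notes list Cell Ranger 5.0.1 and Seurat 3.2.0. The genome build and annotation are not given in the sources used here, so no coordinates or sequences are given. The 9 members and all gene lists were chosen with earlier results of these data known. 1 library of treat at day 3 was not analysed here. No other per-sample columns were left unused (0).

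Barcodes were kept as cells with a gene number above 400 and below 6000, if mitochondrial genes took less than 25% and hemoglobin less than 3% of UMIs. This left 150379 of 161207 barcodes with over 400 genes. Within each library, the cells with the highest doublet scores, past percentile 92.5, were dropped (11269). Clusters came from the Leiden method (resolution 0.9, 20 neighbours) on 30 principal components of the log-normalized values of 2000 variable genes. A cluster was named for a type with at least 3 detected markers (in over 10% of its cells and over 2 times the CPM of other cells). The naming rule was adjusted after the clusters had been seen, before the fits: clusters with the markers of both T and NK cells became T/NK, and shared epithelial markers did not count against tuft or goblet cells.

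UMIs were summed per sample and population and tested with edgeR 4.0.16 (quasi-likelihood test, TMM scaling, filterByExpr, R 4.3.3), with the Benjamini-Hochberg adjustment over all genes tested and a threshold of 0.05. The coefficients were sham, days 1, 3 and 7, and raised flow. All 9 samples entered where each had at least 20 cells of a type, and otherwise the 6 transplanted samples (B cells, DC and neutrophils). The day term pairs ctrl with treat, and the pairing comes from the labels. DESeq2 1.42.0 was an alternative. The fits and the free RNA estimate were tested on simulated data. CPM are UMIs per 1000000 and are not TMM-scaled. All members are named, and of other listed genes at most 3 per direction, population and comparison, by smallest adjusted p.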

Additional observations from a re-analysis of the deposited data

Results flagged for a closer look

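Some members had all ctrl samples above all sham samples in one cell type and all below in another. Over the 8 cell types, the CPM ranges of ctrl and sham were apart in 18 of 65 member and cell type pairs and in 25.4% of all gene and cell type pairs, from 17% in tuft cells to 31.7% in macrophages. The difference between cell types was not tested in any of the cases below. Values are log2 fold changes of ctrl against sham.

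Pde4b lay above sham in fibroblasts (1.84) and EC (0.60) and below sham in NK cells (-0.78) and T cells (-0.50). The NK cells of ctrl1D and ctrl3D had only 8 and 12 UMIs of Pde4b. Pde4d lay above in fibroblasts (1.12) and macrophages (1.92) and below in tuft cells (-0.63). The tuft cells of ctrl1D, ctrl3D and ctrl7D had only 25, 4 and 2 UMIs of Pde4d. Prkar1a lay above in fibroblasts (0.79) and below in NK cells (-0.48) and T cells (-0.53). Atf1 lay above in tuft cells (0.51) and below in VSMC (-0.34) and macrophages (-0.29). Prkaca lay above in tuft cells (0.31) and below in NK cells (-0.68). Of these, the estimates of Pde4b, Pde4d and Prkar1a in fibroblasts passed the test.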

How the results depend on the processing

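Leaving out each sample in turn gave 1 to 16 member calls in ctrl against sham, 0 to 9 in day 7 against day 1, and 0 in treat against ctrl, where 1.2% to 15.8%, 0.57% to 11% and 0.00822% to 0.124% of all gene and population pairs were called. Crem over all cells then ranged from 0.47 to 0.92, from 1.20 to 1.83 and from -0.11 to 0.34 on the log2 scale in these comparisons. Sham and ctrl samples alone gave 1 call in ctrl against sham. In day 7 against day 1, DESeq2 gave 8 calls and libraries as separate samples, which may come from the same rat, 11. No share of all pairs is given for these settings. In the comparison of day 7 with day 1, Crem over all cells passed the test with total UMIs (1.59), DESeq2 (1.51) and libraries as samples (1.56). The cause was not tested.

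Over all members, the sign changed under at least 1 alternative in 29 of 74, 52 of 99 and 45 of 99 pairs in the 3 comparisons, for estimates of up to 0.41, 0.63 and 0.71 in size. For Crem these were as follows. In treat against ctrl, Crem over all cells was -0.025 without cycling clusters. Without both day 3 samples it was -0.11 over all cells, -0.12 in BEC, -0.019 in DC, -0.10 in T cells and -0.22 in neutrophils. With no doublet removal tuft cells gave 0.39, and at Leiden resolution 2 DC gave -0.0047. In ctrl against sham, BEC gave 0.014 with no doublet removal and 0.27 without the Scgb1c1 and Ttr cluster, and tuft cells gave -0.10 with no doublet removal and -0.065 with libraries as samples. In day 7 against day 1, NK cells gave -0.0014 with size factors, -0.00077 with DESeq2, -0.15 with total UMIs, -0.26 with libraries as samples, -0.013 with free RNA subtracted, -0.012 without day 3, and -0.020 at Leiden resolution 2. The cause was not tested.

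Leaving out samples gave these ranges where the sign changed. In ctrl against sham they were -0.40 to 0.24 in BEC and -0.67 to 0.83 in tuft cells. In day 7 against day 1 they were -0.28 to 0.60 in DC, -0.26 to 0.79 in EC, -0.44 to 0.43 in NK cells and -0.016 to 0.82 in neutrophils. In treat against ctrl they were -0.15 to 0.54 in BEC, -0.018 to 0.63 in DC, -0.068 to 0.46 in T cells, -0.24 to 0.54 in neutrophils and -1.03 to 0.73 in tuft cells.

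The day term pairs ctrl and treat. With no replicate block for the day, treat against ctrl still gave 0 calls among 98 pairs, and Crem over all cells 0.08. The settings without the Scgb1c1 and Ttr cluster, cycling clusters or day 3 samples were chosen after seeing the data. Of 851 alternative values for single members, at most 40 per setting and so not for every pair, 714 kept their sign and their side of the threshold. Of the rest, 84 were classed as weaker, 17 as stronger and 36 as reversed. An uncalled value that stayed uncalled also counts as kept, so the count does not measure how firm the calls are. Low UMI counts limit Creb1, Crtc3 and Pde4d most.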

Other observations

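An unnamed cluster with Gata3 and Il2ra entered no comparison of cell types. Its Crem level was 1098, 1577 and 1589 CPM in the sham samples, 665, 654 and 1067 CPM in ctrl at days 1, 3 and 7, and 1077, 1584 and 1246 CPM in treat. All ctrl samples lay below all sham samples, while the treat samples overlapped with them. The cluster was picked after its values had been seen, and no test was made.

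In DC, where sham1 had too few cells for a fit, Prkar1a had 477 and 493 CPM in sham2 and sham3. The ctrl samples had 90.6, 223 and 164 CPM and the treat samples 161, 347 and 150 CPM, all below both sham samples. Crem in DC had 713 and 803 CPM in sham2 and sham3, 296, 354 and 440 CPM in ctrl, and 453, 600 and 382 CPM in treat. The make-up of DC also differed. The cluster with most DC held 55.2% and 52% of them in sham2 and sham3, and 61.7% and 64.1% at day 3 of ctrl and treat. At days 1 and 7 it held 80.3% to 88.5%. No test against sham was made in DC.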
